A study of Mus musculus with 9 samples.

Results

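The miR-183 cluster comprises 3 microRNA (miRNA) hairpins on mouse chromosome 6, and the counts of their 5p mature strands in serum are described here. The members were miR-182-5p (MIMAT0000211), miR-183-5p (MIMAT0000212) and miR-96-5p (MIMAT0000541), 3 of the 876 mature miRNAs that had at least 1 count in any library. They were picked by these miRBase identifiers, and the cluster itself was selected on the counts of all 9 libraries with results of these data known. Each difference between groups is therefore given as a description. Where a member passed or missed a threshold in a fit over all miRNAs, this is not read as evidence. In undepleted serum, miR-182-5p made up nearly the whole count of the cluster, miR-183-5p was rarer (455 against 31 reads over the 3 libraries), and miR-96-5p was not detected. After depletion of tRNA fragments with beads, miR-182-5p and miR-183-5p both had more reads than before, but a smaller share of all miRNA reads (0.317 and 0.273 times the former share, from summed counts).

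A miRNA is cut from a hairpin in its primary transcript and lowers the output of messenger RNAs that pair with it, chiefly through the seed, the bases near its 5′ end. miR-183, miR-96 and miR-182 come from one primary transcript and are best known from sensory cells of the retina and the inner ear. Changes in the seed of miR-96 cause hearing loss in mouse and human. Serum miRNAs are shed by many tissues and by blood cells, so a level in serum names no cell of origin. The groups compared here were fractions of the same isolated RNA, so a difference between them is not a difference in shedding.

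Serum of healthy 129/SVj mice, male and female pooled and 2 to 9 months old, was used in all groups. The mice were sedated with tribromoethanol before the blood was drawn, and the groups had no separate animals. The labels give no transgene or further treatment for any group. RNA of serum pools A, B and C was divided into 3 fractions, which were left undepleted (control), depleted of 5′ tRNA-halves by biotin-carrying DNA probes captured on streptavidin beads (beads), or depleted by DNA probes and RNase H, which cleaves RNA paired to DNA (RNase H). This gave 3 libraries per group. The labels name 3 pools, whereas the study's protocol describes 200 μl aliquots of a pool of serum from 3 mice, so that the spread between A, B and C may be technical only.

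The mature sequences are shown because the members share much of the seed, whereas miR-96-5p departs from the others chiefly in its 3′ part. Capitals mark bases 2 to 8, the seed (RefSeq, GRCm38.p6).
miR-182-5p: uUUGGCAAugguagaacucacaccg
miR-183-5p: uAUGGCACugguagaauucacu
miR-96-5p: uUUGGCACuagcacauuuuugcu

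All 3 sequences begin with U, and no seed of 7 bases was shared by any pair of members. miR-182-5p and miR-96-5p had 6 of the 7 seed bases in common, as had miR-183-5p and miR-96-5p, whereas miR-182-5p and miR-183-5p had 5. In a comparison without gaps from the 5′ end, miR-182-5p and miR-183-5p had the same base at 18 of 22 positions (81.8%). Their longest common run was UGGUAGAA, which starts at base 9 in both. miR-96-5p had the base of miR-182-5p at 12 of 23 positions (52.2%) and that of miR-183-5p at 13 of 22 (59.1%). After base 12, only 3 of 11 positions of miR-96-5p were those of miR-182-5p, against 8 of 10 between miR-182-5p and miR-183-5p. The members that were detected in every control and beads library are also the pair with the most similar sequences. A link between sequence and detection was not tested. Among 1679 mature mouse miRNAs in RefSeq, miR-1271-5p alone had the full seed of miR-96-5p, and no other miRNA had that of miR-182-5p or of miR-183-5p. The G and C content was 48.0% in miR-182-5p, 40.9% in miR-183-5p and 39.1% in miR-96-5p, all below the median of 52.2% over these miRNAs.

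The hairpins lie on the minus strand within 3820 bases, in the order Mir183, Mir96, Mir182 of transcription. miR-183-5p is at chr6:30169711-30169732, within the hairpin Mir183 (chr6:30169668-30169737). miR-96-5p is at chr6:30169506-30169528, within Mir96 (chr6:30169446-30169551). miR-182-5p is at chr6:30165962-30165986, within Mir182 (chr6:30165918-30165992). Mir183 and Mir96 are separated by 116 bases and Mir96 and Mir182 by 3453 bases. No other GENCODE M21 gene overlaps this span, so the hairpins are intergenic. The nearest genes are Rncr4, a long non-coding RNA on the plus strand 3155 bases beyond Mir183, and Nrf1, a protein-coding gene 12459 bases beyond Mir182. The sequence of each mature strand occurs in 1 place among the RefSeq miRNAs, so its counts need not be divided between hairpins.

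**Figure D1:**
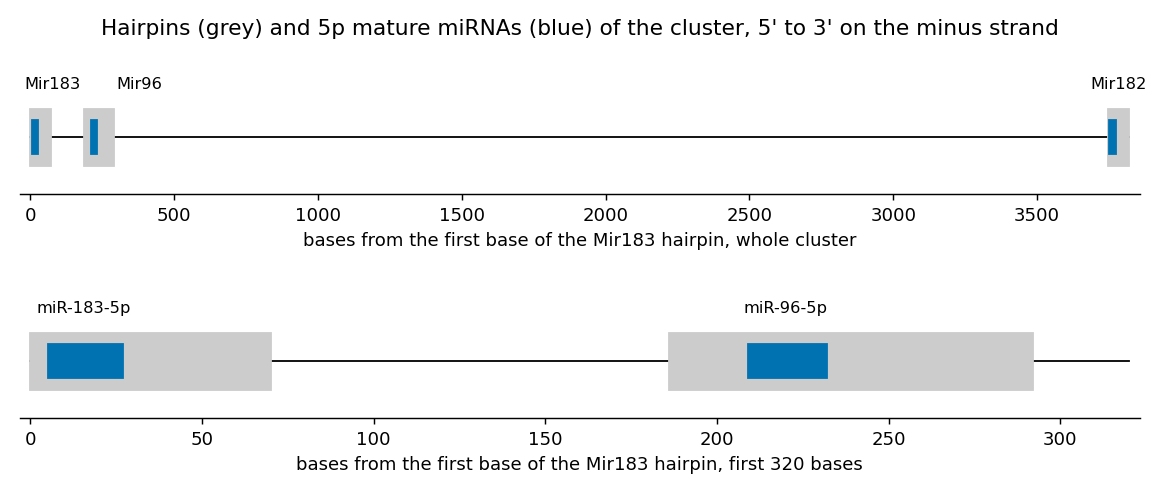
The map draws the hairpins (grey) and 5p mature miRNAs (blue) to scale, with bases from the first base of Mir183 on both horizontal axes. The upper axis shows the whole cluster and the lower axis its first part, where Mir183 and Mir96 lie 116 bases apart, while Mir182 follows after another 3453 bases.

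The sum of miRNA counts was 205185 to 330676 in control, 1822088 to 1995956 in beads and 1199 to 2040 in RNase H libraries. Levels are given as reads per 1000000 miRNA counts (RPM). A count of 0 was taken to allow a level of up to 3 counts. On this scale, 3 counts were 9.07 to 14.6 in control, 1.50 to 1.65 in beads and 1471 to 2502 in RNase H libraries. The libraries of a group differed beyond sampling noise in each pair (chi-square per degree of freedom over miRNAs of 1.37 or more), so no library was counted as a copy of another. miR-16-5p (MIMAT0000527), known to be abundant in serum and red blood cells, had 28190 to 45427 counts in the control libraries.

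miR-182-5p, whose known targets include FoxO transcription factor mRNAs, was the leading member of the cluster. In control libraries it had 127, 200 and 128 counts in pools A, B and C, and in beads libraries 322, 367 and 368. In RNase H libraries it had 1, 0 and 0 counts. All beads libraries held more reads of miR-182-5p than any control library, whereas a single read was left after RNase H. The sum of all miRNA counts was also 6.04 to 9.39 times as high in beads as in control libraries of the same pool. With all annotated counts as library size, all 332 miRNAs tested were raised, so nothing is read from the higher counts. At the control level, 3.02 reads would have been counted in the RNase H libraries.

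miR-183-5p had 9, 15 and 7 counts in control pools A, B and C. In the beads libraries of the same pools it had 20, 25 and 17 counts. It had no count in any RNase H library. Its counts were thus low throughout, and those of beads again lay above those of the controls. The sum of all miRNA counts rose by more, so nothing is read from this about the member. At the control level, 0.206 reads would have been counted in the RNase H libraries.

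miR-96-5p was at the limit of detection. It had no count in any control or RNase H library and 1, 0 and 1 counts in beads pools A, B and C. Over the 3 control libraries, 0 of 784557 miRNA counts allows a level of up to 3.82 RPM. Over the 3 beads libraries the level was 0.348 RPM (2 of 5744589, exact Poisson 95% interval 0.0422 to 1.26), below what the control libraries could show. Hence a difference in miR-96-5p between the groups was not detectable at this depth, and no fold change is given. In beads libraries, miR-96-5p was 1 of 16 miRNAs tied at rank 658 of 837.

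**Figure D2:**
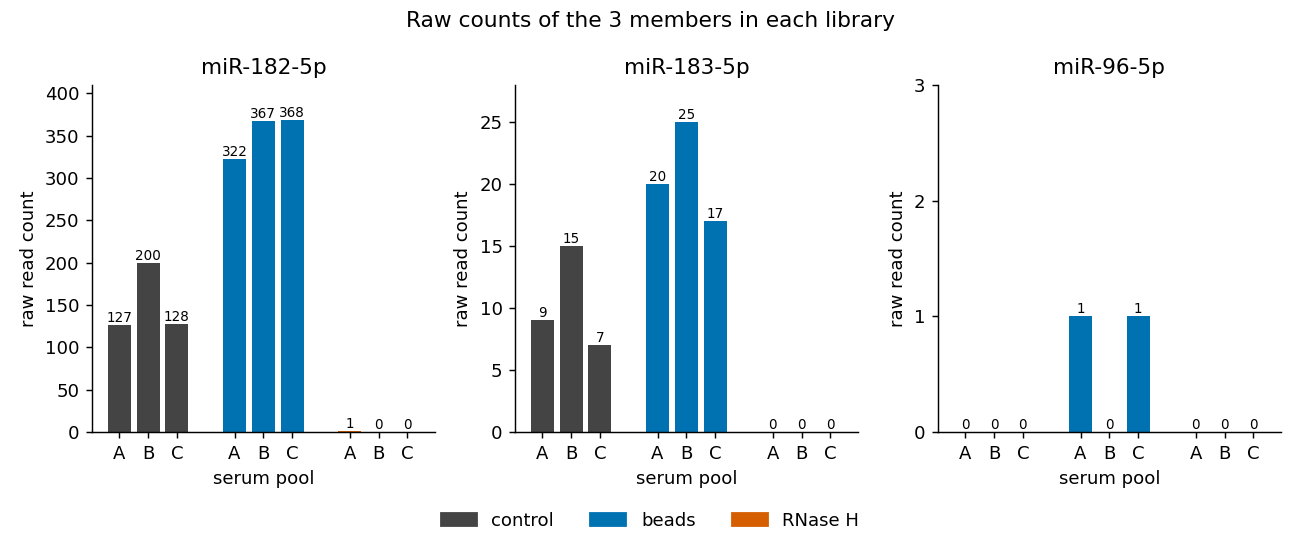
Bars show the raw read count of each member (vertical axes, separate scale per panel) in every library, with pools A, B and C on the horizontal axis and groups by colour. Beads libraries hold the highest counts of miR-182-5p (322 to 368) and miR-183-5p (17 to 25), miR-96-5p appears as 1 read in beads pools A and C, and RNase H libraries hold 1 read of the cluster in all.

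Relative to all miRNA reads, the direction was the opposite. The level of miR-182-5p was 619, 605 and 515 RPM in control pools A, B and C, and 167, 184 and 202 in beads pools A, B and C. The mean was 579 ± 56.6 in control and 184 ± 17.4 in beads libraries (SD, n = 3 each). All 3 beads levels lay below all 3 control levels, and no Wilson 95% interval of a beads library reached that of a control library (highest beads bound 224, lowest control bound 433).

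The level of miR-183-5p was 43.9, 45.4 and 28.1 RPM in control and 10.4, 12.5 and 9.33 in beads pools A, B and C. The mean was 39.1 ± 9.54 in control and 10.7 ± 1.63 in beads libraries (SD, n = 3 each). The levels of the groups did not overlap, although counting error was wide. In control pool C, 7 reads gave a Wilson 95% interval of 13.6 to 58.1 RPM, which overlapped the interval of 8.48 to 18.5 in beads pool B. Of the 307 miRNAs tested between beads and control libraries, 16.0% had all 3 beads levels below all 3 control levels, and nothing is read from the 2 members among them.

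**Figure D3:**
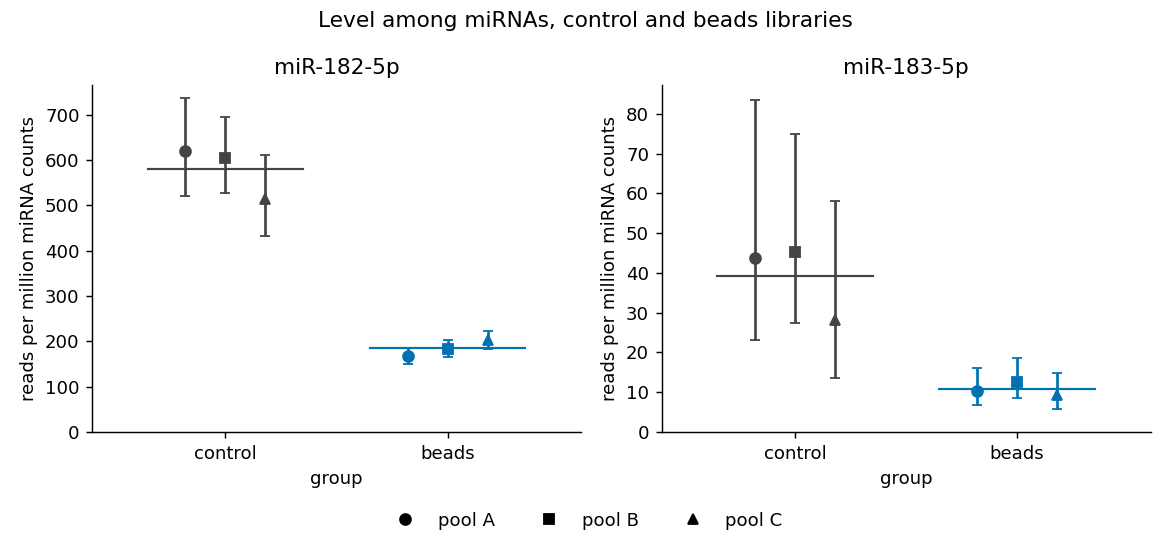
Points are the level of a member in RPM (vertical axes from 0) in control and beads libraries, with the pool as symbol, Wilson 95% intervals as bars and group means as lines. Beads levels of miR-182-5p (167 to 202) and miR-183-5p (9.33 to 12.5) lie below every control level (515 to 619 and 28.1 to 45.4).

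In the fit across all miRNAs (edgeR), miR-182-5p had a log2 fold change of -1.65 ± 0.13 (SE) between beads and control libraries, a level 0.320 times that of the controls. miR-183-5p had a log2 fold change of -1.85 ± 0.42 (SE), a level 0.277 times that of the controls. Over all 307 miRNAs the median was 0.04. The fold changes of miR-183-5p and miR-182-5p were the 2nd and the 4th lowest of the 307. These ranks depend on the filter on low counts. In the fit without that filter they were the 66th and the 74th lowest of 875. Both members passed the threshold of 0.05 on the adjusted p in the fit of 307, as 26.7% of all miRNAs tested did, 10.1% with a lower level after beads. Because this contrast was known when the cluster was chosen, nothing is read from that count. miR-96-5p did not pass the filter on low counts and was not tested.

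**Figure D4:**
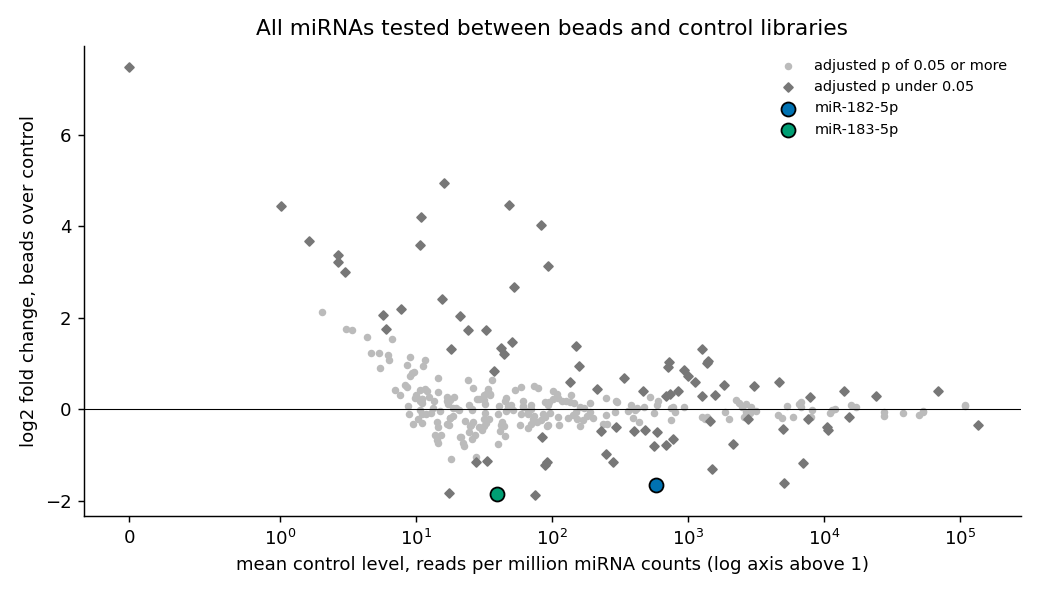
Each point is 1 of the 307 miRNAs tested between beads and control libraries, with the mean control level on the horizontal axis (log above 1) and the log2 fold change on the vertical axis. miR-182-5p (-1.65) and miR-183-5p (-1.85) lie at the lower edge, and most miRNAs lie near 0.

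The scale decided the direction in every pool. The raw count of miR-182-5p in beads libraries was 2.54, 1.84 and 2.88 times that of the control library of the same pool (A, B and C), and that of miR-183-5p 2.22, 1.67 and 2.43 times. The sum of all miRNA counts was 9.39, 6.04 and 7.33 times as high in these pools. Both members thus gained reads, but fewer than miRNAs as a whole. As a share of the miRNA counts, miR-182-5p was at 0.270, 0.304 and 0.392 times and miR-183-5p at 0.237, 0.276 and 0.331 times the control level.

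On the scale of reads per 1000000 annotated counts, which include the tRNA reads that were depleted, miR-182-5p was 3.15, 3.23 and 3.17 times as high after beads in pools A, B and C. The mean ratio was 3.19 ± 0.0384 (SD, n = 3), so that the pools differed little on this scale. The ratio of miR-183-5p was 2.77, 2.93 and 2.68. The annotated totals were 3904095 to 4920457 in control and 2796718 to 3538246 in beads libraries. The study reports more mapped reads on average in beads than in control samples, so ratios per mapped read would be lower. With the annotated totals as library sizes, the log2 fold changes were 1.67 for miR-182-5p and 1.44 for miR-183-5p. The median was 3.37 over all 332 miRNAs tested. Relative to that median, miR-182-5p was lower by 1.70 and miR-183-5p by 1.92 on the log2 scale, close to the values on the miRNA scale. Another library size moves all log2 fold changes by a similar amount, so this closeness was set by the calculation and is no second result.

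**Figure D5:**
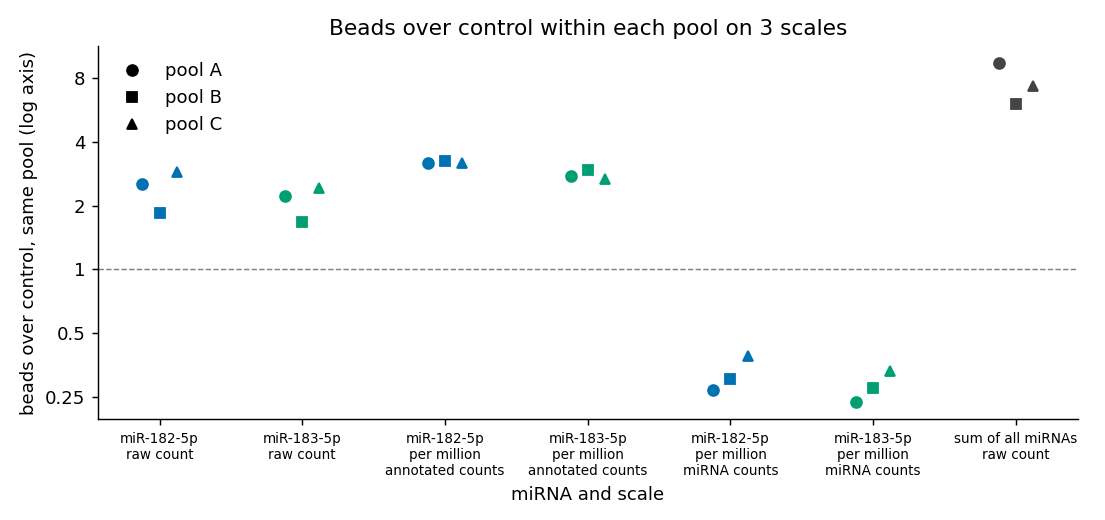
Points give the ratio of the beads to the control library of a pool (log axis, dashed line at 1) for miR-182-5p (blue) and miR-183-5p (green) on 3 scales, and for the sum of all miRNA counts (grey). Ratios of raw counts (1.67 to 2.88) and per 1000000 annotated counts (2.68 to 3.23) lie above 1, ratios of RPM values (0.237 to 0.392) lie below 1, and the ratios of the sum of all miRNAs lie highest (6.04 to 9.39).

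The make-up of the cluster does not depend on the scaling between libraries. miR-183-5p contributed 6.62%, 6.98% and 5.19% of the cluster's reads in control pools A, B and C, and 5.83%, 6.38% and 4.40% in beads pools A, B and C. Its mean share was 6.26% ± 0.948 in control and 5.54% ± 1.02 in beads libraries (SD, n = 3 each), and the groups overlapped. Within pools A, B and C the difference, beads minus control, was -0.787, -0.599 and -0.781 percentage points, and the mean difference of -0.722 ± 0.107 points (SD, n = 3) was larger than its spread between pools. The counting error of the shares was wider than this difference, with Wilson 95% intervals of 4.53% to 8.91% in control and 4.34% to 7.03% in beads libraries over the summed counts. The remainder was miR-182-5p, apart from the 2 reads of miR-96-5p (0.178% of 1121 reads in the beads libraries).

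The reads of miR-182-5p per read of miR-183-5p numbered 14.1, 13.3 and 18.3 in control and 16.1, 14.7 and 21.6 in beads libraries. Pool C had the highest and pool B the lowest ratio in both groups. Within each of the 3 pools this ratio was higher after beads. Over the summed counts the conditional odds ratio was 1.16 with an exact 95% interval of 0.719 to 1.84, which covers counting error only. The interval includes 1, so a difference in response between the members was not detectable at this depth, and it reaches from a lower to a higher ratio after beads.

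By mean level, miR-182-5p ranked 80 of the 572 miRNAs listed in control and 113 of the 837 listed in beads libraries. miR-183-5p ranked 186 and 290. The share of listed miRNAs above miR-182-5p was 13.8% in control and 13.4% in beads libraries, and that above miR-183-5p 32.3% and 34.5%. The lists differ in length and the beads libraries were deeper in miRNA counts, so these shares are not comparable between the groups. In control libraries, the neighbours of miR-182-5p in this order were MIMAT0004894 (588 ± 52.2 RPM) and MIMAT0000513 (561 ± 149), and those of miR-183-5p were MIMAT0004624 (39.6 ± 15.5) and MIMAT0004656 (37.3 ± 7.03, SD, n = 3 each). These lie within the spread between replicates of the member, as the closest levels in the order. Within the cluster, the order miR-182-5p, miR-183-5p, miR-96-5p held in each control and beads library.

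Over the 6 control and beads libraries, the miRNA with the profile most like that of miR-183-5p was MIMAT0000524 (Pearson's r = 0.994 on log2 levels), followed by MIMAT0004324 (r = 0.991) and MIMAT0000673 (r = 0.980). For miR-182-5p these were MIMAT0000527, which is miR-16-5p (r = 0.993), MIMAT0004324 and MIMAT0000673 (both r = 0.992). The log2 fold changes of these miRNAs were smaller than those of the members, from -0.34 ± 0.051 (SE) for miR-16-5p to -1.30 ± 0.098 for MIMAT0000673. Between the members r was 0.973, and of 306 miRNAs compared, 18 had r above 0.9 with miR-182-5p and 22 with miR-183-5p. The points share their libraries, and r takes in the difference between control and beads libraries that was known when the cluster was chosen. It is therefore not read as joint variation between samples, and these values are a description only.

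After RNase H, 1 read of miR-182-5p was left among 5216 miRNA counts, a level of 192 RPM with an exact Poisson 95% interval of 4.85 to 1068. At the control level of miR-182-5p, 3.02 reads would have been counted at this depth, and at the beads level 0.960. The ratio of the summed RNase H level to that of control was 0.331, with an exact 95% counting interval of 0.00835 to 1.85. The interval includes 1 as well as the ratio of 0.317 after beads, so a difference was not detectable at this depth. Of the members, miR-182-5p alone passed the filter in this comparison, and it did not pass the threshold on the adjusted p, which 11.6% of the 138 miRNAs tested did.

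For miR-183-5p, 0.206 reads would have been counted in the RNase H libraries at its control level. Its count of 0 allows a level of up to 575 RPM over the group, well above the 39.1 measured in control libraries. A difference between RNase H and control libraries was thus not detectable for miR-183-5p or miR-96-5p. All intervals and limits given take in counting error alone and treat reads as independent. PCR reads without molecular identifiers are not independent molecules, so the counting error may be larger than given.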

How the data were processed

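Small RNA was sequenced from 9 libraries of mouse serum RNA. Per the methods of the authors, adapters were removed (Cutadapt 1.8.1), and reads that passed a quality filter were mapped to GRCm38 (Bowtie 1.1.2, no mismatch allowed) and annotated by position, with miRNAs from miRBase. The deposited values are raw read counts, per mature miRNA in one file and per distinct sequence of other small RNA classes in another, and were not normalized. Reads with an untemplated or edited base are lost by this mapping, and isomiRs are not kept apart.

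Groups and pools were taken from the labels. The miRNA counts were tested with edgeR 4.0.16 (R 4.3.3) by the quasi-likelihood test with TMM normalization, filterByExpr, the summed miRNA counts of a library as its size, the 2 groups compared in each fit and Benjamini-Hochberg adjustment at 0.05. The SE was taken as the ratio of the log2 fold change to the root of its F statistic. Shares have Wilson and sums exact Poisson 95% intervals (SciPy 1.17.1, Python 3.11.15). The fit was checked on simulated counts for both comparisons, with pass limits set for beads only. Alternatives were other scalings, filters, DESeq2 (1.42.0, the tool of the study), a joint fit, the pool as a block and leaving out each pool. The pools pair the libraries, since the RNA of one pool was divided over the groups. Their deviations from group means had a correlation of 0.033 to 0.161 between control and beads libraries of a pool, and of -0.093 to 0.061 for RNase H.

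The members and lists were chosen with earlier results of these data known. Named miRNAs other than the members are the neighbours in rank and the 3 miRNAs with the highest Pearson's r on log2 levels (prior count 2). miR-16-5p was named beside its identifier in the study's text. Opposite arms, miRNAs with a shared seed, sensory and epithelial miRNAs and markers of blood cells, liver and muscle had been planned as lists by name. They were not analysed here, because the files and reference tables used here do not pair miRBase identifiers with names, so the labelled tissue was not checked against markers. Sequences came from RefSeq (GRCm38.p6), in which 3 of 3 members matched, and genes from GENCODE M21.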

Additional observations from a re-analysis of the deposited data

How the results depend on the processing

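Between beads and control libraries, the log2 fold change was negative in 10 of 11 alternatives for miR-182-5p (-1.80 to -1.52) and in 9 of 10 for miR-183-5p (-1.95 to -1.75), as a description of the values known when the cluster was chosen. miR-183-5p did not pass the filter of the joint fit. With the pool as a replicate block the values were -1.65 and -1.84. The exception was all annotated counts as library size, with 1.67 and 1.44, where the denominator includes the tRNA reads that were depleted. On that scale the summed share of the 3 members was 3.17 times the control value, against 0.316 on the miRNA scale and 0.285 to 0.342 under the other 6 alternatives. The number of miRNAs called for beads was 82 (51 raised), 332 (all raised) with all annotated counts and 63 to 93 otherwise. For RNase H it was 16 (9 raised), 51 (4 raised) with all annotated counts, 4 to 30 with a pool left out (8, 30 and 4 without pool A, B and C) and 12 to 21 otherwise. The fitted log2 fold change of miR-182-5p for RNase H was -1.71 ± 1.24 (SE). It passed the threshold with all annotated counts (-3.30) and in no other alternative, and nothing is read from either outcome. The only read was in pool A, and without that pool no fold change is given. With the block, 91 miRNAs were called for beads and 12 for RNase H, and no call of a member changed. miR-96-5p for beads and miR-183-5p for RNase H entered only the fits without a filter, and miR-96-5p entered no RNase H fit, so no setting could be compared. Depth is the limit for these results.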
